A study of Mus musculus with 8 samples.

Results

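Lipolysis enzymes and regulators were examined in the epididymal fat of male mice, a depot of white fat attached to the epididymis. The group holds 9 genes chosen by their known roles, of 34866 in the deposited table: the lipase genes Pnpla2, Lipe and Mgll, the lipase regulators Abhd5 and G0s2, the receptor genes Adrb3 and Hcar1, the phosphodiesterase gene Pde3b and the channel gene Aqp7. All 9 were found by symbol, and all 9 were among the 12480 genes that passed the low-count filter and were tested. The study compared 4 control libraries, of the genotype Aromatase flox/flox, with 4 knockout libraries of the genotype aP2-Cre;Aromatase flox/flox. In both groups the aromatase gene Cyp19a1 is flanked by loxP sites, and aP2-Cre is a transgene in which the Fabp4 promoter drives the recombinase. That promoter, of a fatty acid binding protein also called aP2, is active in adipocytes and is known to be active in macrophages as well. Mice that carry the transgene alone were not analysed here, so the transgene and the deletion cannot be told apart, and the age of the mice is not given in the sources used here. Aromatase converts androgens into oestrogens, and the stated aim was to find genes downstream of it in fat that bear on phosphorus metabolism.

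Lipolysis is the stepwise release of fatty acids and glycerol from the triglyceride of the fat droplet. Adipose triglyceride lipase (gene Pnpla2) removes the first fatty acid, hormone-sensitive lipase (Lipe) cuts diglyceride and monoglyceride lipase (Mgll) releases the last fatty acid from glycerol. In fat cells catecholamines start the process through beta adrenergic receptors, cyclic AMP and protein kinase A, while insulin and lactate restrain it by lowering cyclic AMP.

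The libraries held 1538427 to 3053565 estimated counts, with control replicate 4 the smallest. Cyp19a1 had 0 to 5.0 estimated counts per library. Its level was 1.0 ± 0.841 CPM for the controls and 0.736 ± 0.674 CPM for the knockouts (SD, n = 4, two-sided exact permutation p = 0.629). The deletion could not be checked from so few counts, which are also counts of 3′ ends only. Knockout replicate 1, with no count, could have held up to 3 counts, or 1.37 CPM. CPM, the usual depth-normalised count, was taken here on TMM-scaled library sizes (a scaling that evens out differences in composition). The 12 adipocyte markers were present in every library, summing to 53294.6 to 68076.1 CPM in the control and 45149.2 to 64139.5 CPM in the knockout libraries. Of 5 epididymis markers, Lcn5, Lcn8 and Crisp1 were at 0 in every library. Rnase10 had 4.0 counts in control replicate 1 and 3.0 in knockout replicate 1, and Spag11b had 1.0 count in each of control replicates 1 and 2 and knockout replicate 2. In bulk tissue, fewer cells of a type and less RNA per cell cannot be told apart.

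With edgeR's quasi-likelihood test, 0 of the 9 genes had an adjusted p under 0.05, against 21 of all 12480 genes tested, or 0.168% (0.12% higher and 0.0481% lower in the knockout). At an unadjusted p under 0.05 the count was also 0 of 9, against 6.39% of all genes (3.52% higher and 2.87% lower), and it was 0 of 9 with DESeq2 and with limma-voom at either threshold. The libraries of the 2 genotypes overlapped for each of the 9 genes, whereas they did not overlap for 4.24% of all genes tested (2.52% higher and 1.72% lower). The fitted log2 fold change (knockout minus control) was below 0 for 7 genes and above 0 for 2, with a median of -0.08 beside a median of 0.0 over all genes tested. The labels do not say whether the libraries of a group came from separate animals, so p-values measure only the spread between these libraries, which may be technical.

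The sequences upstream of these genes were read because several members varied together across libraries and because the study removes the enzyme that makes oestrogens. Promoter windows of 250 bases before to 50 bases after a start were at hand for 7 of the 9 genes, from RefSeq on GRCm38.p6, the build the submitters' processing notes name. Windows for Adrb3 and Pde3b were not used here. Shown 5′ to 3′ on the gene's strand are the 250 bases before the start of Pnpla2 (chr7:141454938-141455187, plus strand) and Hcar1 (chr5:123880004-123880253, minus strand), a pair that was high and low in the same libraries, and of Abhd5 (chr9:122351366-122351615, plus strand) and Aqp7 (chr4:41048137-41048386, minus strand), the genes with a nuclear receptor core site. Capitals mark that core site, AGGTCA, which reads TGACCT on the strand shown.
Pnpla2: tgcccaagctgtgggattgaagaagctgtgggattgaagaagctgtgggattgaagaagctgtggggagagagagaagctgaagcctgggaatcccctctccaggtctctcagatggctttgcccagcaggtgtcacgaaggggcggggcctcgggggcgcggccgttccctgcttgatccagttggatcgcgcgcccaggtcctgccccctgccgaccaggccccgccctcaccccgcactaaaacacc
Hcar1: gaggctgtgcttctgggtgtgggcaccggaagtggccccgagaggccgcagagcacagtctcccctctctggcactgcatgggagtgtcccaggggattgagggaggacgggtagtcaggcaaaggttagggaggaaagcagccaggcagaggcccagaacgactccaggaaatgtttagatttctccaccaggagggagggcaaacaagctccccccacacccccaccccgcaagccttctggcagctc
Abhd5: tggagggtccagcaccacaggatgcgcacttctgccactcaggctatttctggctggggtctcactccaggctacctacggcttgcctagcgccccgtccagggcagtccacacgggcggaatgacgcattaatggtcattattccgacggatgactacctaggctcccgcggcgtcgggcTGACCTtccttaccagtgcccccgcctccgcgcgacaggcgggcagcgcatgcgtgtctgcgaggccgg
Aqp7: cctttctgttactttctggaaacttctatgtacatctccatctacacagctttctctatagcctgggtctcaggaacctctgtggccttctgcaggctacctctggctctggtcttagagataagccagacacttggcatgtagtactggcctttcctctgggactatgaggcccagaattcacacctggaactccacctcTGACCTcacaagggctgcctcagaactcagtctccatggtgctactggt

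The core site AGGTCA was found in the windows of 2 of the 7 genes, Abhd5 and Aqp7, and in 16.3% of all 32817 promoter windows of that length. A gene was counted if any of its windows matched, and Lipe, Mgll and Aqp7 have 2 each, whereas the shares are of single windows. In Abhd5 the core site begins 69 bases before the start. Aqp7 has 2 annotated starts with overlapping windows and 2 such sites. The site shown begins 49 bases before the upstream start, and the other begins 101 bases before the downstream start, between the 2 starts. The oestrogen element, AGGTCA then 3 bases and TGACC (in 0.0548% of all windows), the androgen element, AGAACA then 3 bases and TGTTC (0.0488%), and the PPAR element, AGGTCA then 1 base and AGGTCA (0.0396%), were in none of the 7 genes' windows. The E-box CACGTG was in the windows of Lipe and Mgll, beginning 155 and 44 bases before 1 of 2 annotated starts of each gene, and in 7.15% of all windows. The cyclic AMP element TGACGTCA (1.79% of all windows), the CEBP site TTGCNNAA (10.8%), the TATA box TATAAA (13.6%) and the CCAAT box (37.4%) were in none of the 7. Each motif was searched on both strands by its exact letters, and the oestrogen and PPAR elements contain the core site, so the matches describe letters and not binding.

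**Figure D1:**
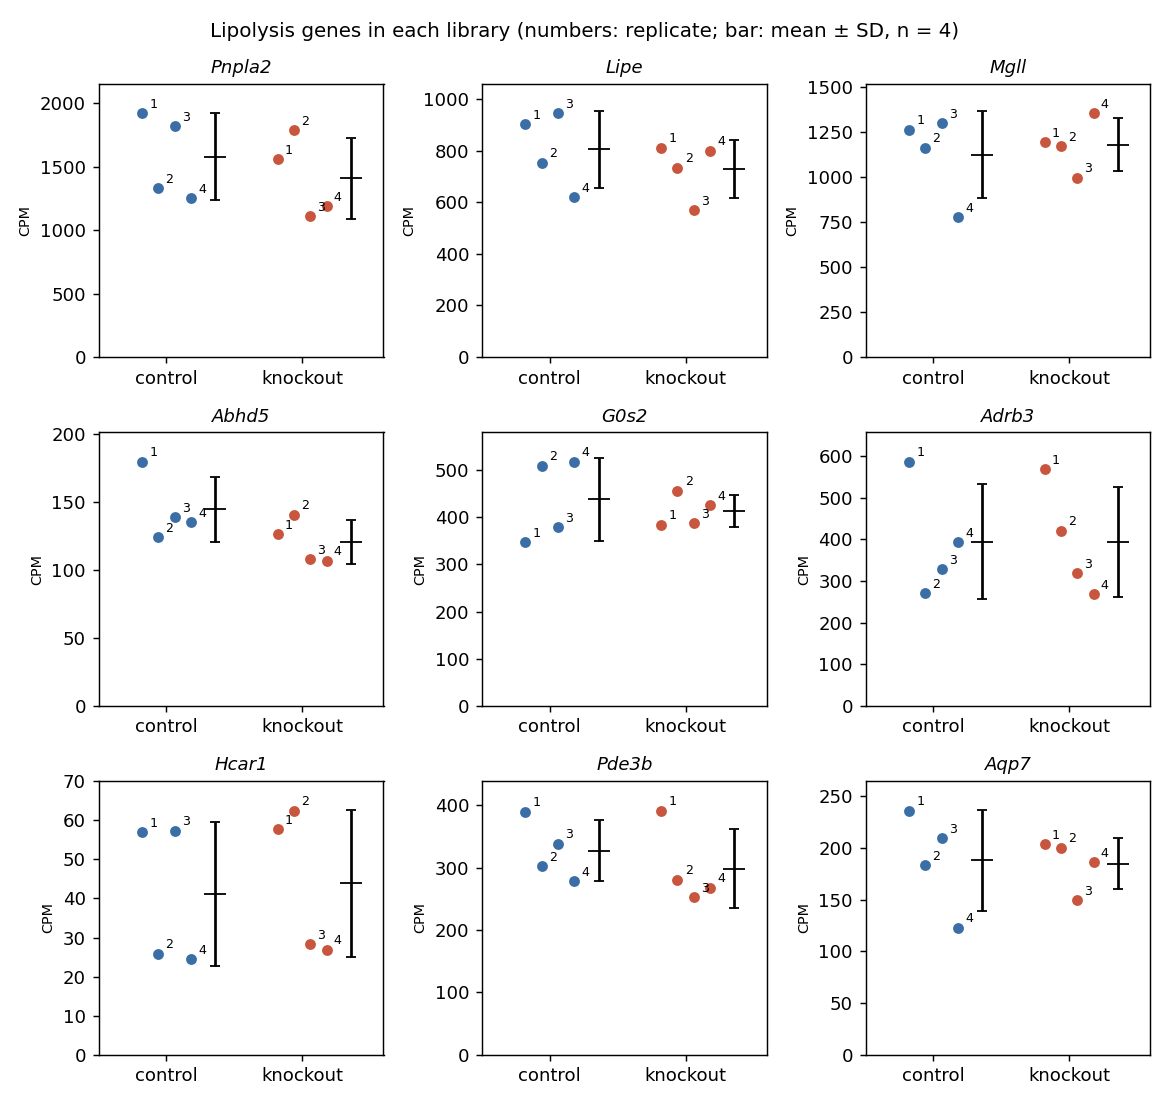
Level of each of the 9 genes in CPM (vertical axis, from 0) in the 4 control and 4 knockout libraries, with the replicate number beside each point and the mean ± SD (n = 4) beside each group. Control and knockout points overlap in every panel, and Hcar1 shows 2 separate levels within each genotype.

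The lipases cut the fat itself. Pnpla2 (chromosome 7, 141455198 to 141460743, plus strand) was at 1925.1, 1329.8, 1818.7 and 1250.7 CPM in control replicates 1 to 4 and at 1559.2, 1787.6, 1109.0 and 1187.5 CPM in knockout replicates 1 to 4. Each genotype thus held a higher and a lower pair of libraries, and the ranges of the genotypes overlapped. The means were 1581.1 ± 340.1 and 1410.8 ± 318.8 CPM (SD, n = 4), and the fitted log2 fold change was -0.16 (standard error 0.18, edgeR adjusted p = 0.941). Its 95% interval ran from -0.56 to 0.23, or from 0.68-fold to 1.17-fold.

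Lipe (chromosome 7, 25379527 to 25398710, minus strand) was at 904.2, 753.6, 947.7 and 619.3 CPM in the control and at 812.3, 734.6, 571.0 and 801.5 CPM in the knockout libraries. Control replicate 4 and knockout replicate 3 were the low libraries. The log2 fold change was -0.14 with a standard error of 0.15 (edgeR adjusted p = 0.939), and the interval was 0.722-fold to 1.13-fold. Mgll (chromosome 6, 88724412 to 88828360, plus strand) was at 1263.4, 1164.1, 1299.3 and 776.3 CPM in the control and 1195.6, 1170.8, 996.1 and 1357.0 CPM in the knockout libraries. Its lowest library was control replicate 4, its highest knockout replicate 4. Its fitted value was 0.07 on the log2 scale (standard error 0.16, interval -0.27 to 0.4, edgeR adjusted p = 0.982), and without control replicate 4 it turned to -0.08.

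Abhd5 and G0s2 act on adipose triglyceride lipase from opposite sides: the Abhd5 protein is its coactivator, held by perilipin on the resting droplet, and the G0s2 protein binds and inhibits it. Abhd5 (chromosome 9, 122351608 to 122381524, plus strand) had the smallest p of the 9 genes. It was at 179.6, 124.2, 138.9 and 135.2 CPM in the control libraries and at 126.3, 140.7, 108.1 and 106.9 CPM in the knockout libraries. Knockout replicates 3 and 4 lay below every control library, and knockout replicates 1 and 2 lay within the control range. The means were 144.5 ± 24.2 and 120.5 ± 16.1 CPM (SD, n = 4), and the fitted log2 fold change was -0.27 (standard error 0.14, unadjusted p = 0.0744, edgeR adjusted p = 0.816). Its interval was 0.678-fold to 1.02-fold. Its unadjusted edgeR p was 0.0426 without control replicate 2 and 0.0342 without knockout replicate 2, with adjusted p-values of 0.842 and 0.905.

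G0s2 (chromosome 1, 193272161 to 193273217, minus strand) was at 347.3, 509.6, 379.4 and 518.0 CPM in the control and at 384.6, 456.7, 387.9 and 425.7 CPM in the knockout libraries. In the control group the libraries with the most G0s2, replicates 2 and 4, were the ones with the least Pnpla2. The knockout group did not show this, as its replicate 2 had the most of both genes (456.7 CPM of G0s2 and 1787.6 CPM of Pnpla2). The log2 ratio of G0s2 to Pnpla2 was -2.47, -1.38, -2.26 and -1.27 for the controls, in replicate order, and -2.02, -1.97, -1.51 and -1.48 for the knockouts. The knockout range lay inside that of the controls. The fitted log2 fold change of G0s2 was -0.08 with a standard error of 0.14 (edgeR adjusted p = 0.96, interval 0.767-fold to 1.16-fold). G0s2 overlaps Lamb3, a laminin gene on the opposite strand, which was at 2.75 to 7.43 CPM.

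**Figure D2:**
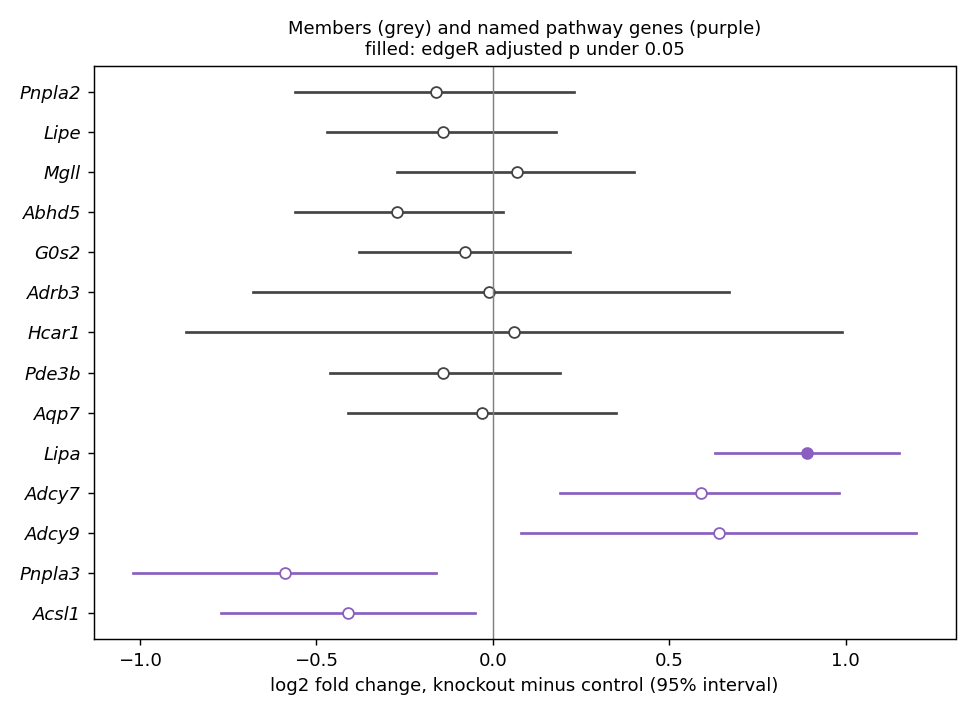
Log2 fold change, knockout minus control, with its 95% interval for the 9 lipolysis genes (grey) and for 5 other genes of the pathway named in the text (purple). Every grey interval crosses 0, and the filled point, Lipa at 0.89, marks an edgeR adjusted p under 0.05.

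The receptors varied most among the 9 genes. Adrb3, the gene of the beta 3 adrenergic receptor through which noradrenaline drives lipolysis in rodent fat (chromosome 8, 27225776 to 27250616, minus strand), was at 586.2, 270.2, 328.8 and 393.0 CPM in the control and at 567.6, 420.7, 318.3 and 267.7 CPM in the knockout libraries. Both replicates numbered 1 were highest, and each genotype spanned about the same range. The fitted log2 fold change was -0.01 with a standard error of 0.3 (edgeR adjusted p = 0.999), and the interval, 0.624-fold to 1.59-fold, was wide.

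Hcar1, the gene of the lactate receptor that lowers cyclic AMP in fat cells (chromosome 5, 123876736 to 123880020, minus strand), was at 56.9, 25.9, 57.4 and 24.4 CPM in the control and at 57.7, 62.5, 28.3 and 26.9 CPM in the knockout libraries. These levels rest on 163.0, 62.0, 128.0 and 38.0 estimated counts in the control and 126.0, 155.0, 73.0 and 82.0 in the knockout libraries. No library lay between 28.3 and 56.9 CPM, and each genotype had 2 libraries above and 2 below that gap. The coefficient of variation was 44.9% among controls and 43.1% among knockouts, where counting error alone at the mean of 103 counts gives 9.84%. The genotypes had means of 41.2 ± 18.5 and 43.9 ± 18.9 CPM (SD, n = 4), and the fitted log2 fold change was 0.06 (standard error 0.4, edgeR adjusted p = 0.992). Its interval, 0.546-fold to 1.99-fold, was the widest of the 9.

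Pde3b, the phosphodiesterase through which insulin lowers cyclic AMP (chromosome 7, 114415281 to 114539251, plus strand), was at 389.9, 302.3, 338.2 and 278.3 CPM in the control and at 391.5, 280.5, 252.3 and 268.1 CPM in the knockout libraries. Knockout replicate 1 lay just above the highest control library, and knockout replicates 3 and 4 lay below the lowest one. The log2 fold change was -0.14 with a standard error of 0.15 (edgeR adjusted p = 0.941, interval 0.727-fold to 1.14-fold). Aqp7, the channel by which glycerol leaves the fat cell (chromosome 4, 41033074 to 41048139, minus strand), was at 236.2, 183.5, 209.4 and 122.7 CPM in the control and at 203.4, 200.4, 149.5 and 186.5 CPM in the knockout libraries. The knockout range lay inside the control range. Its log2 fold change was -0.03 with a standard error of 0.18 (edgeR adjusted p = 0.992, interval 0.752-fold to 1.28-fold).

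Spread between libraries of 1 genotype exceeded counting error for each of the 9 genes. From Pnpla2, at a mean of 3630 counts and a counting error of 1.66%, to Hcar1, the coefficients of variation within a group ranged from 8.26% (G0s2, knockout) to 44.9%. The highest library exceeded the lowest by 1.49-fold for G0s2 and by 2.57-fold for Hcar1.

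Several members were high or low in the same libraries. Control replicate 1 was above the 8-library mean of log2 CPM for 8 of the 9 genes, and G0s2 was the exception. Knockout replicate 3 was below it for all 9, at -0.46 to -0.12. Control replicate 4 was below it for 6, most for Hcar1 (-0.67), Aqp7 (-0.58) and Mgll (-0.55), and above it for Abhd5, G0s2 and Adrb3. The summed adipocyte markers were highest in control replicate 1 (68076.1 CPM) and lowest in knockout replicate 3 (45149.2 CPM), a sum to which Car3 alone gave 28705.2 and 21065.0 CPM. The mean log2 CPM of 10 of these markers, which weights them equally, was instead highest in control replicate 3 (10.86) and lowest in control replicate 4 (10.31), with control replicate 1 at 10.85 and knockout replicate 3 at 10.45. The part of the markers in the pattern was not tested.

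**Figure D3:**
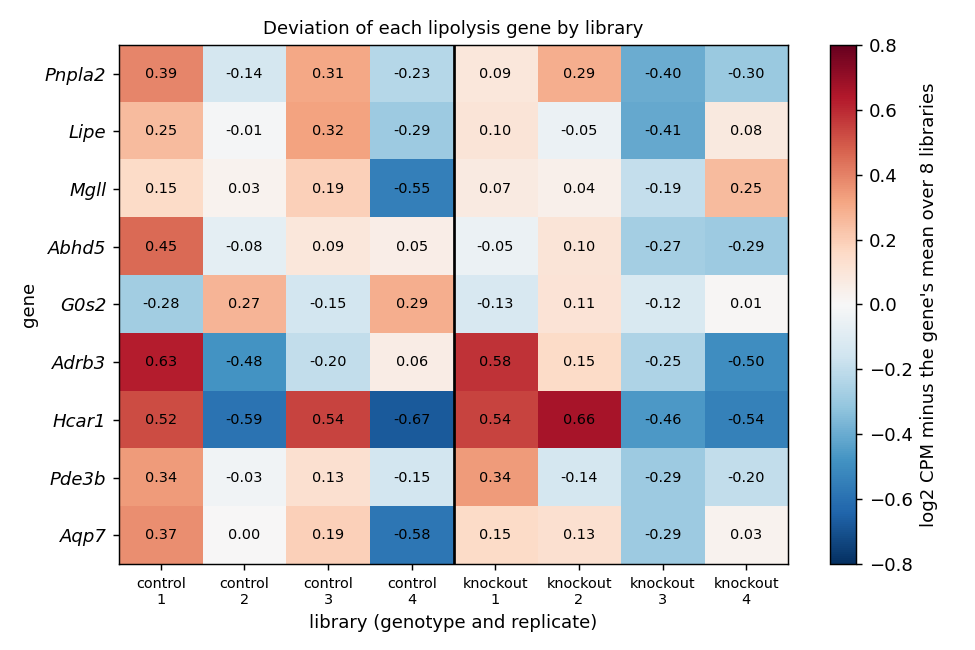
Log2 CPM of each gene minus its mean over the 8 libraries, for the 9 genes (rows) and the control and knockout libraries (columns, divided by a line). Red marks a library above the gene's mean and blue one below it. Knockout replicate 3 is below for all 9 genes. The G0s2 row runs against the Pnpla2 row in the 4 control libraries, but has the same sign as it in knockout replicates 2 and 3.

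Pnpla2 and Hcar1 shared their high and low libraries. Aqp7 had the same 4 highest libraries, at 200.4 CPM or more, against 186.5 CPM or less in the others. How many of all genes had these 4 libraries highest was not counted. Control replicates 1 and 3 and knockout replicates 1 and 2 held 1559.2 CPM or more of Pnpla2 and 56.9 CPM or more of Hcar1. The other 4 libraries held 1329.8 CPM or less and 28.3 CPM or less. Each genotype had 2 libraries at either level. The summed adipocyte markers overlapped between these libraries, at 68076.1, 61737.5, 64139.5 and 50208.4 CPM in the former and 53294.6, 53938.0, 45149.2 and 50047.4 CPM in the latter, and their part in the 2 levels was not tested.

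Relative to the adipocyte markers of the same library none of the 9 genes passed the threshold between the genotypes. The reference was the mean log2 CPM of 10 markers, none of them on the lipolysis lists. It was 10.68 ± 0.26 for the controls and 10.63 ± 0.17 for the knockouts (SD, n = 4, two-sided exact permutation p = 0.686). Of the 10 markers only Retn did not overlap between the genotypes, against 4.24% of all genes tested. Retn was at 2037.3 to 2753.5 CPM in the control and 1367.2 to 1713.9 CPM in the knockout libraries. Its fitted log2 fold change was -0.65 (edgeR adjusted p = 0.0731). For the 9 genes the difference of the log2 ratios, knockout minus control, ran from -0.2 for Abhd5 to 0.16 for Hcar1. The smallest p was 0.2, for Mgll (two-sided exact permutation tests, adjusted p = 0.771 over the 9). The smallest possible p of these permutation tests was 0.0286, and after adjustment over the 9 a single gene at that p could not pass. They therefore cannot decide whether a single gene differed.

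The ratio narrowed the spread of some genes and widened that of others. Within a genotype the SD of Lipe was 0.08 for the controls and 0.13 for the knockouts on this scale, against 0.26 over both on log2 CPM. For G0s2 it was 0.52 and 0.23, against 0.22, and for Abhd5 0.27 and 0.25, against 0.21. The log2 ratio of Lipe was -1.03, -1.15, -0.97 and -1.03 for the controls, in replicate order, and -1.17, -1.0, -1.29 and -1.05 for the knockouts. Its low control library, replicate 4, was thus level with the others on this scale. That holds for this set of markers, and the spread of Lipe against other choices of marker was not compared. Mgll was at -0.55, -0.52, -0.51 and -0.71 for the controls and -0.61, -0.33, -0.49 and -0.29 for the knockouts. Knockout replicates 2, 3 and 4 lay above every control library for Mgll, and replicate 1 lay within the control range. Hcar1 kept its 2 levels on this scale in the control libraries, at -5.0, -5.97, -5.0 and -5.66, and the knockout libraries were at -4.96, -4.54, -5.59 and -5.9.

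**Figure D4:**
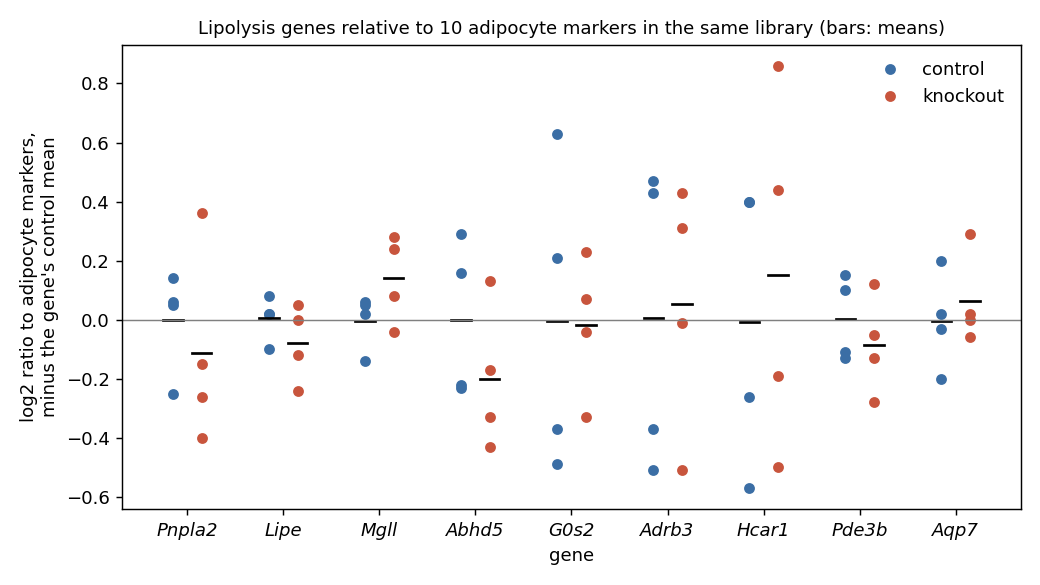
Log2 ratio of each gene to 10 adipocyte markers of the same library, minus the gene's control mean, for the control (blue) and knockout (red) libraries; bars are group means. The means differ by -0.2 to 0.16 and the points of the genotypes overlap for each gene, with Lipe the narrowest and G0s2, Adrb3 and Hcar1 wide.

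The genes whose level followed each member most closely were sought among 7443 other genes with a mean of at least 20 CPM, by Pearson correlation of log2 CPM over the 8 libraries. These values are descriptions, because the genes of a library share its tissue makeup and many genes were compared. Pnpla2 was followed by Ech1, an enzyme that handles unsaturated fatty acids (r = 0.968), Igf2bp2 (0.952) and Derl2 (0.949). Lipe was followed by Decr1, a mitochondrial enzyme of fatty acid oxidation (r = 0.976), Rpn2 (0.973) and Acp5 (0.972). For Mgll the closest were Spaar (r = 0.986), Atp6v0e (0.978) and Pxmp4 (0.973). Abhd5 was followed by Mgst1 (r = 0.957), Etfbkmt (0.936) and Zfand6 (0.933), and G0s2 by Mapk8 (0.945), Trp53bp2 (0.939) and Hacd3 (0.93). Aqp7 was followed by Fli1 (r = 0.976), by Cd36, the fatty acid transporter (0.976), and by Fth1 (0.974). Pde3b was followed by Uck1 (r = 0.967), Fh1 (0.956) and Sra1 (0.955). Adrb3 was followed by Ifi27l2a, an interferon-inducible gene (r = 0.974), Dop1a (0.957) and Arnt (0.956). Ifi27l2a was at 1186.2, 280.3, 383.9 and 746.2 CPM in the control and 1303.2, 860.9, 469.0 and 329.6 CPM in the knockout libraries, so it too was highest in both replicates numbered 1. For Hcar1, whose libraries fell into 2 separate levels, no correlation is given; the closest by the same measure were Sh3pxd2a, Smarcc2 and Etfa.

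Of 75 other genes of the pathway, 69 were tested and 1 passed the threshold, against 0.168% of all genes. That gene was Lipa, the acid lipase of the lysosome, which breaks down lipid outside the neutral lipolysis of the droplet surface. Lipa rose from 74.8, 67.8, 90.1 and 80.1 CPM in the control to 132.8, 163.0, 140.8 and 141.7 CPM in the knockout libraries, with no overlap. The log2 fold change was 0.89 with a standard error of 0.12 (edgeR adjusted p = 0.00776). Without control replicate 2 the adjusted p was 0.0551, and with the replicate number as a block 0.0696. Beside it, the summed level of 15 macrophage markers was 1123.9 to 1234.7 CPM in the control and 1581.1 to 2054.0 CPM in the knockout libraries. Lyz2 alone gave 355.2 to 402.8 CPM of that sum in the control and 599.1 to 797.5 CPM in the knockout libraries. Of the 14 macrophage markers tested 12 were higher and 2 lower, with a median log2 fold change of 0.32. The 3 that passed the threshold were Lyz2, Ctss and Cd68. None of the 15 markers was at 0 in every library, and their part in the Lipa difference was not tested.

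At an unadjusted p under 0.05, 3 of the 69 were higher and 2 lower in the knockout, against 3.52% and 2.87% of all genes, and apart from Lipa none of them passed the adjusted threshold. Adcy7 and Adcy9, adenylyl cyclases that make cyclic AMP, had fitted values of 0.59 and 0.64 on the log2 scale (edgeR adjusted p = 0.482 and 0.701). Adcy7 was at 18.2, 15.9, 19.7 and 19.9 CPM in the control and 27.5, 25.8, 33.4 and 23.9 CPM in the knockout libraries, a pair of ranges that did not overlap. Lipa, Adcy7 and Adcy9 were the 3 of 69 whose libraries did not overlap, against 4.24% of all genes in either direction. All 3 were higher in the knockout, against 2.52% of all genes. The part of the macrophage markers in these differences was not tested. Pnpla3, a lipid droplet relative of Pnpla2, was at 103.6, 85.4, 90.4 and 112.6 CPM in the control and 89.2, 41.7, 56.2 and 73.2 CPM in the knockout libraries (log2 fold change -0.59, edgeR adjusted p = 0.58). Acsl1, which activates fatty acids with coenzyme A, was at 494.1, 498.2, 707.4 and 614.7 CPM in the control and 532.1, 372.8, 334.0 and 501.5 CPM in the knockout libraries (log2 fold change -0.41, edgeR adjusted p = 0.701). Both of these genes overlapped between the genotypes.

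By role, the medians of the pathway ran from -0.25 to 0.11. The droplet coat and lipase partners had a median log2 fold change of -0.03 over 16 genes, with Lipa the 1 that passed. The G proteins and cyclases had a median of 0.07 over 10, the kinases -0.05 over 6, the phosphodiesterases 0.05 over 5 and the insulin arm -0.03 over 9. The receptors that lower cyclic AMP had a median of 0.11 over 7, those that raise cyclic AMP or cyclic GMP 0.0 over 5, and glycerol and fatty acid handling -0.01 over 5. Transcription factors of the lipases had the lowest median, -0.25 over 6 genes, with 5 below 0 and none past the threshold. Of these, Pparg, the master regulator of the fat cell, was at 247.7, 249.8, 203.6 and 201.3 CPM in the control and 190.5, 193.2, 182.7 and 202.3 CPM in the knockout libraries (log2 fold change -0.23, edgeR adjusted p = 0.802). Only knockout replicate 4 reached the control range. Fabp4, whose promoter drives the Cre transgene, was at 15049.2 to 22091.8 CPM in the control and 13925.9 to 20986.4 CPM in the knockout libraries.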

How the data were processed

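RNA of epididymal fat of 4 control and 4 knockout samples was sequenced by BRB-seq, a 3′-end method primed with oligo-dT, per the labels' protocols. The authors deposited estimated counts per gene; Salmon and GRCm38 are named in the submitters' processing notes, without versions, and the use of molecular identifiers is not given in the sources used here. Of 142154 values above 0, 59.6% were exactly whole. The tests were planned for whole counts, so these estimates were rounded, and they were tested with edgeR 4.0.16 in R 4.3.3 (robust quasi-likelihood, TMM factors, filterByExpr, genotype as the only term), with Benjamini-Hochberg adjustment over 12480 genes and a threshold of 0.05. Intervals for fold changes are the estimate plus or minus the t quantile times the standard error, at 95%. Log2 CPM used a prior count of 2. Exact permutation tests were written in Python. Names and coordinates are those of GENCODE M21 (GRCm38).

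The genes named are the 9 members, Cyp19a1, the pathway genes past the threshold or with an unadjusted p under 0.05 (up to 5 each way) and, for likeness, the 3 closest genes of each member. The motifs, the 4 upstream sequences, the ratio of G0s2 to Pnpla2, Pparg and Fabp4 were chosen after their values were seen. So were the adipocyte and macrophage markers named, the description of shared libraries and the genes of the closing section. Members and lists were chosen with earlier results of these data known. The edgeR script was tested on simulated data first, where it missed some of the changed genes and the share of false calls was above the threshold of 0.05. Words of 31 bases shared with another gene of the table made up at most 1.74% of a member's words (Aqp7). Alternatives were RLE factors, no low-count filter, DESeq2 1.42.0, limma-voom 3.58.1 with quality weights, the replicate number as a block and leaving out each library. A 3′-end method counts ends, so levels of different genes were not ranked. Counting limits cover counting error only.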

Additional observations from a re-analysis of the deposited data

Results flagged for a closer look

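In 1 of the 48 groups of 4 values examined, a library stood apart from the other 3 by Dixon's criterion, and chance alone marks about 1 in 20 groups. Relative to the adipocyte markers, the log2 ratio of Mgll was -0.71 for control replicate 4, while its 3 companions lay between -0.55 and -0.51. The gap made up 0.842 of the range of the group. Control replicate 4 had the lowest total, 1538427 estimated counts, of which 1211.0 were Mgll.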

How the results depend on the processing

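None of the 9 members passed the threshold under any of the 13 alternatives, and the sign of the fitted value was kept in 102 of 117 values. Pnpla2 (-0.3 to -0.06), Lipe (-0.25 to -0.04), Abhd5 (-0.35 to -0.14) and Pde3b (-0.29 to -0.04) kept it when 1 library was left out. Mgll (-0.08 to 0.14), G0s2 (-0.18 to 0.01), Adrb3 (-0.23 to 0.25), Hcar1 (-0.17 to 0.26) and Aqp7 (-0.18 to 0.1) did not. Adrb3 turned to 0.1 with limma-voom, and Aqp7 to 0.0 with the replicate block. Relative to the adipocyte markers, none of 99 values passed (smallest adjusted p 0.257, exact permutation test). After adjustment over the 9 genes a single gene could not pass in these tests, however fully its libraries separated. They therefore cannot decide whether a single gene differed. With 1 library left out, the ranges of G0s2 (-0.17 to 0.2) and Adrb3 (-0.12 to 0.24) crossed 0. So did those of Hcar1 (-0.08 to 0.37) and Aqp7 (-0.01 to 0.13). With Adipoq as the reference Adrb3 turned to -0.01. Cyp19a1, at -0.45, ranged from -1.18 to 0.33 at 0 to 5.0 counts.

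The count of all genes past the threshold, 21 (15 higher, 6 lower), was 58 (37 and 21) without the low-count filter, 53 (27 and 26) with DESeq2, 6 (4 and 2) with the replicate block and 4 to 43 (3 to 18 and 1 to 25) with 1 library left out, lowest without control replicate 2 and highest without control replicate 4. The other pathway genes past it numbered 0 (0 higher) with the block and 0 to 1 (0 to 1 higher) with 1 library left out, as Lipa fell to an adjusted p of 0.0696 and 0.0551. The cause was not tested. Same-numbered libraries deviated from their group means with correlations of 0.25, -0.06, -0.01 and -0.24, in replicate order, over all genes tested. The labels do not say whether the numbers pair libraries, and these correlations cannot decide it. Depth limits Cyp19a1.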

Other observations

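Several pathway genes outside the 9 varied widely between libraries of 1 genotype. Among those at 20 CPM or more, the widest spread within a genotype, as the SD of log2 CPM, was 0.84 for Ces1f and Ptger3, 0.78 for Pde2a, 0.72 for Gk and 0.7 for Npr3, beside a median of 0.22 over 7444 genes. Ces1f, a carboxylesterase of a family of close copies among which reads may be divided, was at 69.6, 35.6, 136.3 and 44.3 CPM in the control and 94.6, 94.2, 45.4 and 28.3 CPM in the knockout libraries. Its high libraries were the same 4 as those of Hcar1.

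Ptger3, the gene of a prostaglandin E receptor that lowers cyclic AMP, was at 45.2 CPM in control replicate 2 and at 21.1 CPM or less in the other control libraries. In the knockout libraries it was at 19.2, 12.1, 28.3 and 68.5 CPM, and replicate 4 was highest. Npr3, the clearance receptor of natriuretic peptides, was at 481.3, 805.3, 691.4 and 228.1 CPM in the control and 407.4, 395.4, 631.0 and 890.5 CPM in the knockout libraries. Gk, the glycerol kinase gene, was highest in control replicate 4 at 94.2 CPM and lowest in knockout replicate 4 at 23.0 CPM. Pde2a, a phosphodiesterase stimulated by cyclic GMP, ranged from 23.1 to 67.8 CPM in the control and from 19.6 to 75.5 CPM in the knockout libraries. None of the 5 passed the threshold between the genotypes in edgeR's test (adjusted p from 0.961 to 0.992).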
